A study of Mus musculus with 12 samples.

Results

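The 91 nuclear-encoded genes of oxidative phosphorylation were described in a mouse model of pre-B acute lymphoblastic leukemia, which arises from B-cell precursors, in cells with Phf6 lowered, knocked out or intact. Members were taken by symbol from the 23224 genes of the deposited table: every symbol that begins with Nduf, Uqcr, Atp5 or Cox followed by a digit from 4 to 8, and in addition Sdha, Sdhb, Sdhc, Sdhd and Cycs. By the known place of their products in the mitochondrion, 42 were membrane-embedded subunits, 34 matrix subunits, 8 proteins of the intermembrane space and 6 assembly or associated factors. Cox4nb, which the rule also matched, encodes a subunit of an endoplasmic reticulum complex and is kept only as a matched symbol. The cells came from C57BL/6J mice, lacked p19 and overexpressed the BCR-ABL1 fusion kinase in every group. RNA was sequenced from cells carrying a short hairpin RNA against Phf6 (KD), cells knocked out for Phf6 with guide sg4 (KO_sg4) or guide sg1 (KO_sg1), and Phf6 wild-type cells (WT), with 3 libraries in each of the 4 groups. No label says whether the cells of a group were 1 clone or a pool, or whether replicate libraries came from separate cultures, so each p-value rests on the spread among libraries, and that spread may be technical.

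Oxidative phosphorylation passes electrons from NADH through complex I, or from succinate through complex II, to complex III, and then by cytochrome c to complex IV, which reduces oxygen. Complexes I, III and IV pump protons across the inner mitochondrial membrane, and complex V, the ATP synthase, uses their return to make ATP. Complexes I, III, IV and V each join subunits encoded in mitochondrial DNA, which were not analysed here, to a larger number of nuclear-encoded subunits that are imported from the cytosol. Rapidly growing leukemia cells use the respiratory chain for ATP and to support the synthesis of nucleotides.

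Library totals ran from 20382328 to 36032369 estimated counts, and levels are given in CPM, the count scaled to library size after normalisation between libraries. Phf6 averaged 8.79 ± 0.429 CPM in KD, 36.6 ± 7.37 in KO_sg4, 3.40 ± 0.288 in KO_sg1 and 34.5 ± 0.751 in WT (SD, n = 3), so its mRNA level leaves the KO_sg4 label unchecked. Pre-B-cell markers were high throughout, with 11 of 11 tested and summed levels of 16140 to 16726 CPM in KD, 5592 to 7202 in KO_sg4, 6845 to 7620 in KO_sg1 and 6906 to 7382 in WT. Of these, 7 were called higher and 1 lower in KD than in WT, against 37.2% and 40.4% of all genes tested. In the knockout cells (KO, mean of both guides), 6 were higher and 3 lower than in WT, against 17.7% and 23.8%. Their part in the KD and KO results was not tested. Markers of T cells, erythroid cells and stroma summed to at most 4.52 CPM in any library. Ddx3y, Kdm5d and Uty, which are Y-linked, together took 113 to 120 CPM of the unscaled library total in KD, 0.0331 to 0.142 in KO_sg4, 0.0377 to 0.0902 in KO_sg1 and 74.7 to 86.0 in WT, so KO and WT cells differed in Y-linked RNA as well as in the labelled Phf6 genotype, and the parts of the 2 in the KO results below cannot be told apart.

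Expression of the pathway was high in WT cells and uneven between complexes. Scaled per kb of transcript, the median over tested members was 433 CPM per kb for complex V, 330 for complex IV, 290 for complex III, 150 for complex I and 132 for complex II in WT. Atp5b, the catalytic beta subunit of the ATP synthase, was the highest of complex V at 1109 CPM per kb, and Ndufs1, the large iron-sulfur subunit of complex I, the lowest of complex I at 37.5. Assembly and associated factors had a median of 12.8. In all, members took 1.43% to 1.45% of the library total in KD, 1.57% to 1.81% in KO_sg4, 1.83% to 1.86% in KO_sg1 and 1.73% to 1.89% in WT. The 3 KD libraries lay below the 9 others. Of the 91 members, 86 passed the filter on low counts. Cox7b2, Cox8b and Cox8c were at 0 counts in all 12 libraries, which allows up to 0.0833 to 0.147 CPM in a library. Cox6b2, the testis isoform of subunit 6B, reached at most 0.0687 CPM, and Ndufa4l2, a hypoxia-induced relative of Ndufa4, at most 0.348 CPM.

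Most of the pathway was lower in the hairpin cells. Of the 86 members tested, 68 were lower in KD than in WT, 7 were higher and 11 did not pass the test (edgeR quasi-likelihood test, adjusted p below 0.05), and the median log2 fold change was -0.61. Among members 79.1% were lower and 8.14% higher, against 40.4% lower and 37.2% higher (77.6% called) of all 12335 genes tested, whose median was -0.01. Whether fewer cells of a kind or less RNA per cell lies behind a difference cannot be told apart in bulk RNA. Members encode short proteins, with a median of 146 residues against 459 over all tested genes with a protein, and the change in KD was therefore also read against length. After the trend of the log2 fold change with protein length over all genes was removed, 48 members were lower and 22 higher, with a median of -0.23 against -0.09 over all genes, of which 43.2% were lower and 34.4% higher. With libraries scaled by their totals alone, the median of members was -0.39 and that of all genes 0.21.

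Cycs, which encodes cytochrome c, the soluble carrier between complexes III and IV, had the largest fall among members. It had 105, 107 and 103 CPM in the KD libraries, against 277, 285 and 272 in WT, a log2 fold change of -1.40 ± 0.08 (SE, adjusted p = 1.52e-09). All KD values lay below all WT values. Its level in KO_sg4 was 250, 327 and 308 CPM and in KO_sg1 322, 332 and 355, so the KO libraries lay around or above the WT range.

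In complex V all 15 tested subunits were lower in KD, from the catalytic head to the membrane rotor, with a median of -0.94. Atp5b had 945, 925 and 915 CPM in KD, against 2172, 2155 and 2049 in WT (-1.19 ± 0.07, adjusted p = 1.00e-09). Its partner in the catalytic ring, Atp5a1, averaged 645 ± 18.3 CPM in KD and 1362 ± 22.6 in WT (-1.08 ± 0.06). The stator subunit Atp5f1 and the small membrane subunit Atp5k also had log2 fold changes of -1.08. Atp5g1, Atp5g2 and Atp5g3 encode an identical mature ring subunit behind different targeting sequences, and all fell, by 0.86, 0.73 and 0.95 on the log2 scale. Scaled per kb, Atp5g2 made up 48.1% ± 0.905 of their sum in KD and 44.8% ± 0.194 in WT (SD, n = 3), with no overlap between the libraries, and Atp5g3 33.6% ± 0.384 and 36.5% ± 0.327. The mix of the 3 genes thus shifted by a few percent of the total while the sum fell.

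All 8 tested members of complex III and the 4 of complex II were lower too. Uqcrfs1, the Rieske iron-sulfur protein that hands electrons on within complex III, had 86.5, 87.2 and 88.4 CPM in KD, against 220, 216 and 209 in WT (-1.30 ± 0.06, adjusted p = 1.75e-10). Uqcrb, a small matrix-side subunit, was at 60.1 ± 0.701 CPM in KD and 130 ± 3.44 in WT (-1.11 ± 0.08). Both separated fully by library. Complex II, which is also succinate dehydrogenase of the citric acid cycle, fell less evenly. Its iron-sulfur subunit gene Sdhb had a log2 fold change of -0.86 ± 0.08 and its flavoprotein gene Sdha one of -0.28 ± 0.06, with the membrane anchors Sdhc at -0.59 ± 0.07 and Sdhd at -0.54 ± 0.06. The call of Sdha was lost when libraries were scaled by their totals (-0.06, adjusted p = 0.435).

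In complex I, membrane and matrix subunits differed in their counts. Of its 19 matrix subunits 16 fell and 1 rose in KD, with a median of -0.75, while of its 13 membrane subunits 5 fell and 2 rose, with a median of 0.01. Ndufb3 fell to 35.7, 36.3 and 33.6 CPM in KD, against 73.8, 82.2 and 70.0 in WT (-1.10 ± 0.11, adjusted p = 7.59e-07). Ndufb2 and Ndufc1 moved alike, by -1.02 ± 0.15 and -0.99 ± 0.14. Ndufa13, also known as Grim19, went the other way, with 256, 234 and 234 CPM in KD, against 143, 159 and 135 in WT (0.73 ± 0.14, adjusted p = 0.000247). Ndufc2 had 242, 243 and 241 CPM in KD, against 159, 159 and 143 in WT (0.65 ± 0.08). In both, every KD library lay above every WT library. The remaining 6 membrane subunits ran from -0.21 for Ndufb8 to 0.21 for Ndufa1 and did not pass the test. Among matrix subunits the only one called higher was Ndufa9 (0.16 ± 0.06, adjusted p = 0.0262), a call lost when any WT library, or KO_sg1 replicate 1 or 3, was left out, and with no filter on low counts (0.10, adjusted p = 0.203). The 4 intermembrane-space subunits of complex I all fell, between -0.90 for Ndufb7 and -0.64 for Ndufs5.

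The 6 assembly and associated factors had a median of -0.26. Ndufaf1, Ndufaf3, Ndufaf2 and Ndufaf4, which build complex I, had log2 fold changes of -0.72, -0.52, -0.36 and -0.16 in KD and were called lower. The calls of the last 2 depended on the processing. That of Ndufaf2 was lost without KD replicate 1, with library totals (-0.14, adjusted p = 0.197) and with the length trend removed (-0.0056), and with the trend with hydropathy removed it was called higher (0.22, adjusted p = 0.0476). That of Ndufaf4 was lost without KD replicate 1 or 3 or WT replicate 3, with DESeq2 and with library totals (0.060, adjusted p = 0.435), and it was called higher with the length or the hydropathy trend removed (0.18 and 0.26). Atp5s and Atp5sl did not pass the test (0.11 and 0.01), but both were called higher with library totals (0.33 and 0.23), with the length trend removed (0.37 and 0.13) and with the hydropathy trend removed (0.38 and 0.36).

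Complex IV held 4 of the 7 members that rose. Cox6a1, the widely expressed form of a membrane subunit, had 761, 714 and 727 CPM in KD, against 403, 409 and 362 in WT (0.91 ± 0.13, adjusted p = 2.11e-05). Its heart and skeletal muscle counterpart Cox6a2 had 75.8, 76.1 and 80.3 CPM in KD, against 34.6, 36.2 and 32.6 in WT (1.17 ± 0.07, adjusted p = 1.59e-09). Both isoforms of the same subunit thus rose with no overlap between libraries, and the share of Cox6a2 in their sum per kb was 8.14% ± 0.387 in KD and 6.89% ± 0.150 in WT. Cox4i1 was at 751, 718 and 734 CPM in KD, against 551, 562 and 502 in WT (0.45 ± 0.11, adjusted p = 0.00162). Cox4i2, the form known from lung and from low oxygen, had 4.56, 3.43 and 3.23 CPM in KD, against 2.58, 2.81 and 2.19 in WT (0.56 ± 0.18, adjusted p = 0.0093), a call lost without KD replicate 1. With the trend of the change with hydropathy over all genes removed, Cox4i1 was called lower (-0.39, edgeR adjusted p = 0.0052). Cox4i2 was then at -0.09 and did not pass the test (adjusted p = 0.649). Ndufa4 did not pass the test, but was called higher with DESeq2 (0.23), with library totals (0.41) and in the fit of those groups alone (0.22). It was also called higher with the length trend removed (0.77). The other 10 called members of complex IV fell, and none by more than 0.69 on the log2 scale. Cox5a, a matrix-facing subunit, fell the most, and Cox7a1, Cox7a2, Cox7a2l, Cox7b and Cox8a had log2 fold changes of -0.54, -0.51, -0.46, -0.58 and -0.32, the call of Cox8a being lost without KD replicate 1 or 2 or WT replicate 2 and with library totals (-0.10, adjusted p = 0.292). With the length trend removed, Cox7a1, Cox7a2, Cox7b and Cox8a turned positive (0.02, 0.07, 0.01 and 0.30), as did Cox6b1 (0.11 against -0.47), and Cox7a2l stood at -0.0069. Of these genes, only Cox8a was then called, as higher (edgeR adjusted p = 5.28e-05).

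**Figure D1:**
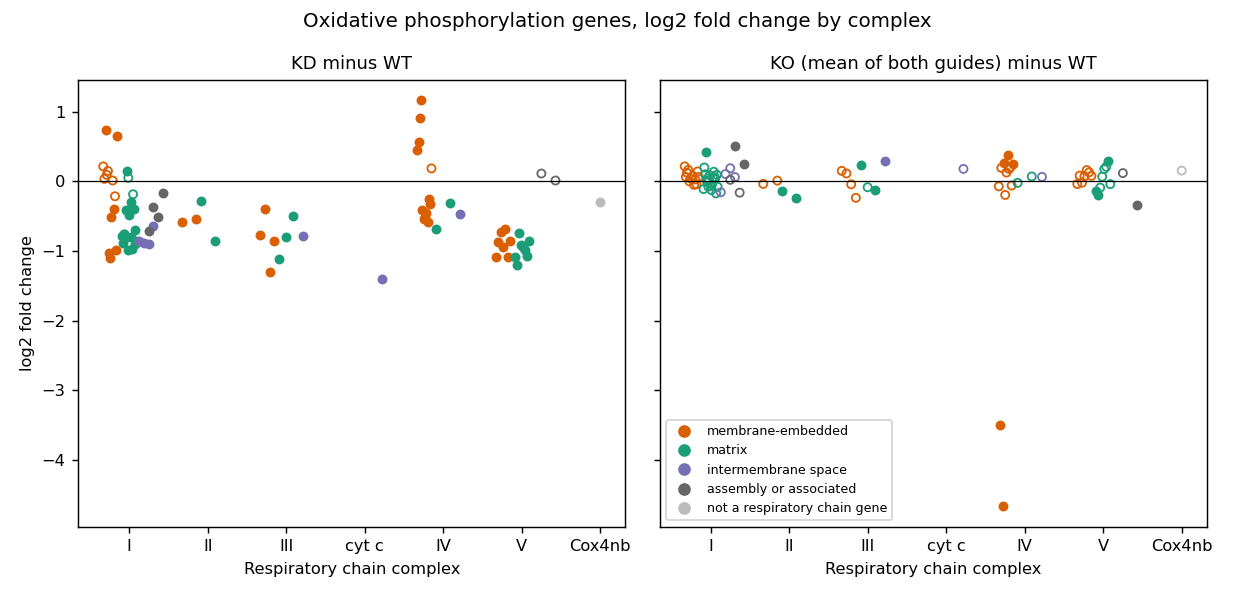
Log2 fold change of each tested member, by respiratory chain complex, for KD minus WT (left) and KO minus WT with both guides weighted equally (right); filled points passed the test, open points did not, and colours mark the place of the protein. All subunits of complexes II, III and V lie below 0 on the left, while on the right most lie near 0 apart from Cox6a2 (-4.66) and Cox4i2 (-3.50) in complex IV.

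Membrane-embedded and matrix subunits were set side by side because across the whole transcriptome the hairpin cells differed by protein type. In the respiratory chain, the membrane-embedded subunits had a median log2 fold change of -0.48 in KD, with 25 of 38 lower and 6 higher, and the matrix subunits one of -0.79, with 31 of 34 lower and 1 higher. The 7 intermembrane-space proteins all fell, with a median of -0.85. Of the membrane-embedded subunits, 24 hold a computed hydrophobic segment (a stretch of 19 residues with mean Kyte-Doolittle hydropathy of at least 1.6), and of these 14 fell and 4 rose (median -0.36), while of the 14 without one 11 fell and 2 rose (median -0.54). Among all 3848 tested genes with such a segment, 16.1% were lower in KD and 65.7% higher, with a median of 0.83, and among the 7673 without one 55% were lower and 21.5% higher, with a median of -0.32. The membrane class was thus above the other in the pathway as among all genes, but the median of membrane-embedded subunits lay below 0 and that of all genes with a segment above it.

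The gap between the classes was seen in every KD library. Expressed as the median log2 ratio to the WT mean, membrane subunits stood at -0.48, -0.46 and -0.44 and matrix subunits at -0.76, -0.77 and -0.80 in KD replicates 1, 2 and 3. In WT the same medians ran from -0.09 to 0.07 for membrane and from -0.07 to 0.04 for matrix subunits, so the classes overlapped there. The difference of the medians, membrane minus matrix, was 0.31 for KD minus WT, 0.06 for KO minus WT and 0.18 for KD minus KO. It was widest in complex I (0.01 for membrane and -0.75 for matrix subunits). In complex IV the medians were -0.29 and -0.50, in complex V -0.86 and -0.96 and in complex III -0.82 and -0.80. No test was made of it, since members were chosen with these results known. It changed with the way hydrophobicity and length were handled: 0.12 with the classes drawn by computed segment, 0.61 with the length trend removed and -0.14 with the trend with hydropathy removed.

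**Figure D2:**
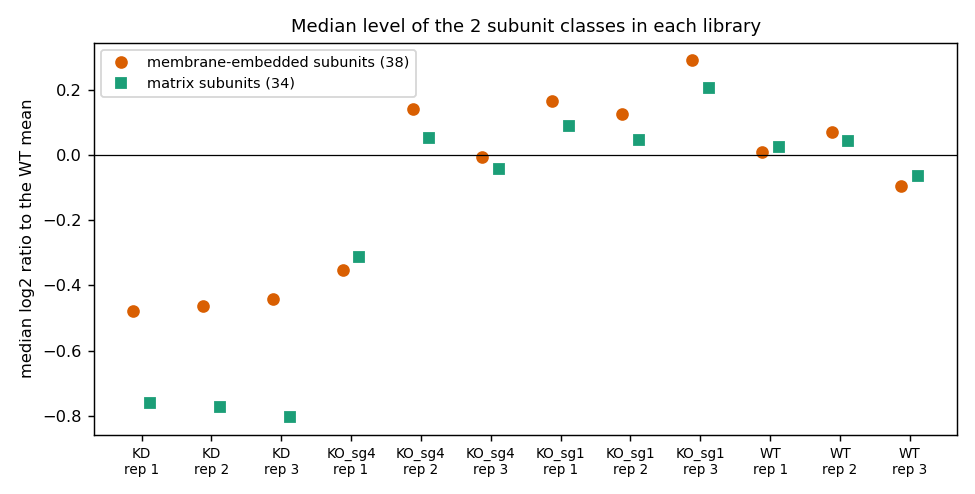
Median log2 ratio to the WT mean (y axis, CPM plus a pseudocount of 0.5) over the 38 tested membrane-embedded subunits (circles) and the 34 matrix subunits (squares) in each of the 12 libraries (x axis). In the 3 KD libraries both classes lie below 0 with matrix subunits lower, and KO_sg4 replicate 1 lies apart from the other KO libraries at -0.35 and -0.31.

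**Figure D3:**
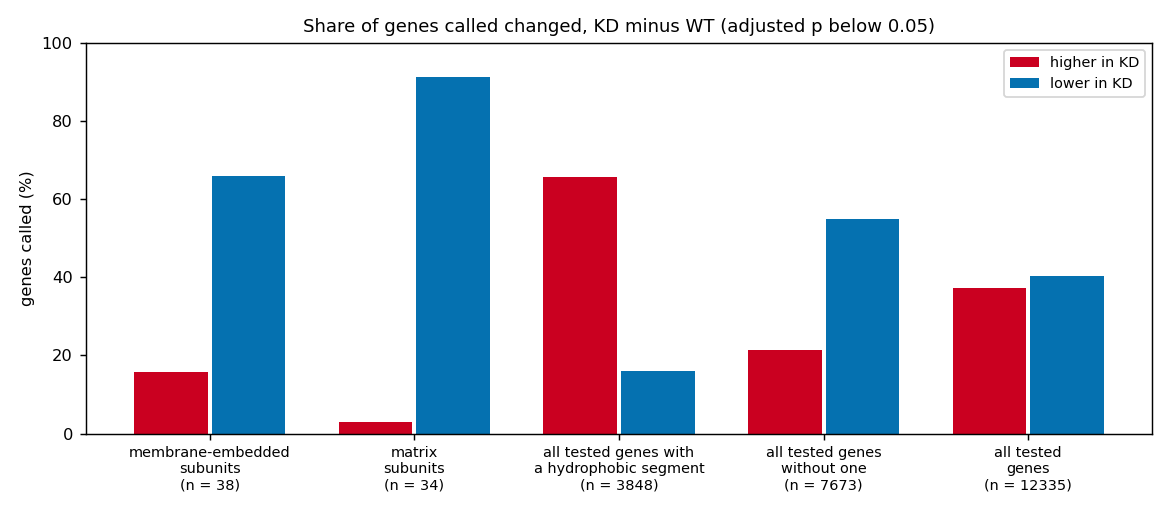
Percent of genes called higher and lower in KD than in WT (y axis, edgeR adjusted p below 0.05) for membrane-embedded subunits, matrix subunits, all tested genes with and without a computed hydrophobic segment, and all tested genes. Membrane-embedded subunits were mostly lower (65.8%), whereas all genes with a segment were mostly higher (65.7%).

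Promoters of these genes are known for sites of NRF1, of ETS factors such as GABP and of YY1, which drive genes of respiration together. RefSeq promoter windows of GRCm38.p6, from 250 bases before to 50 after the start, were listed for 72 of the 86 tested members (78 windows). Both strands were searched for exact matches. The palindromic core bound by NRF1, which the capitals below spell out, was in 7.69% of these windows, in 2.11% of the windows of all tested genes and in 0.971% of all windows listed. AAGATGGCG, a YY1 motif, was in 11.5%, 3.06% and 1.4%, and CCGGAAGT, an ETS core, in 6.41%, 8.22% and 3.89%. The 6 genes with the NRF1 core did not move one way in KD: 4 fell (Atp5k, Atp5g2, Uqcrc1 and Ndufaf4), Cox6a1 rose and Ndufa11 did not pass the test (0.04). All 5 with the ETS core fell, and of the 8 with the YY1 motif 5 fell and 1 rose, against 79.1% lower and 8.14% higher among all tested members. The windows of Cox6a1, Atp5k and Ndufa11 are shown because they share the NRF1 core, in capitals, while the genes had log2 fold changes of 0.91, -1.08 and 0.04 in KD. They lie at chr5:115348909-115349208 (minus strand), chr5:108434350-108434649 (minus strand) and chr17:56717512-56717811 (plus strand).
Cox6a1: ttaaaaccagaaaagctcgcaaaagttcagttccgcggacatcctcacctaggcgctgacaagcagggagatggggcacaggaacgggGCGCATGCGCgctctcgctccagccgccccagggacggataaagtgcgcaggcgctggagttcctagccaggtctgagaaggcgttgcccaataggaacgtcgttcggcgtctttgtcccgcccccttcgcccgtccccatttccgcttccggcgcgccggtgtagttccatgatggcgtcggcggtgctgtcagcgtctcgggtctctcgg
Atp5k: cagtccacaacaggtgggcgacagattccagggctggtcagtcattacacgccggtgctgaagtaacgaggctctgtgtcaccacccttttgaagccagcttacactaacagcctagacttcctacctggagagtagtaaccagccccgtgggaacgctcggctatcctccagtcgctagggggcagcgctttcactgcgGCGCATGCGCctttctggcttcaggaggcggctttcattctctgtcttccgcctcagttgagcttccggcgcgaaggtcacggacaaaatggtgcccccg
Ndufa11: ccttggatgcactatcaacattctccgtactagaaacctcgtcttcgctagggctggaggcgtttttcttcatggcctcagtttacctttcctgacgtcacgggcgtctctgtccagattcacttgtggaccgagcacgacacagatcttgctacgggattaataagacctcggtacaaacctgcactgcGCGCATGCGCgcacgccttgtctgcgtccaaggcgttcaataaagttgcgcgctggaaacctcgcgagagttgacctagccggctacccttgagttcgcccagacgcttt
The same core thus stood before a gene that rose, a gene that fell and a gene that did not pass the test; an exact match is a description and not a site. Cox6a2 and Cox4i2 are not in the table.

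In the fit of all libraries few members differed between knockout and WT cells, but 2 genes of complex IV did so by a wide margin. Of 86 members, 9 were higher and 8 lower in KO than in WT when both guides were averaged, 19.8% in all, against 41.5% of all genes tested (17.7% higher and 23.8% lower), and the median log2 fold change was 0.06. These counts depended on single libraries: with 1 left out, members higher ranged from 4 to 40 and members lower from 4 to 12. The 40 came without KO_sg4 replicate 1, where 23.8% of all genes were higher and 27.5% lower. The 2 genes were Cox6a2 and Cox4i2, the tissue-restricted isoforms of 2 membrane subunits. Cox6a2 had 1.42, 1.42 and 1.09 CPM in KO_sg4 and 1.62, 1.39 and 1.17 in KO_sg1, against 34.6, 36.2 and 32.6 in WT. That is 25.4-fold lower (log2 fold change -4.66 ± 0.09, adjusted p = 9.44e-15), with no overlap. The log2 fold change was -4.72 ± 0.12 for KO_sg4 and -4.61 ± 0.12 for KO_sg1, and the difference between the guides did not pass the test (-0.11 ± 0.16, adjusted p = 0.683). Cox4i2 had 0.186, 0.147 and 0.238 CPM in KO_sg4 and 0.202, 0.206 and 0.390 in KO_sg1, from 3 to 7.27 estimated counts a library, against 2.58, 2.81 and 2.19 in WT (-3.50 ± 0.25, adjusted p = 1.13e-08). Again no KO library reached the lowest WT value. Both genes were higher in KD than in WT, as given above, so that hairpin and knockout cells lay on opposite sides of the same WT libraries; KD against KO was 5.83 ± 0.09 for Cox6a2 and 4.06 ± 0.25 for Cox4i2.

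The widely expressed partners of both did not pass the test in KO. Cox6a1 averaged 410 ± 95.4 CPM in KO_sg4, 488 ± 50.8 in KO_sg1 and 391 ± 25.2 in WT (KO minus WT 0.19 ± 0.11, adjusted p = 0.197), and Cox4i1 455 ± 88.1, 577 ± 29.3 and 538 ± 32.1 (-0.07 ± 0.09, adjusted p = 0.574). Without KO_sg4 replicate 1 the change of Cox6a1 passed the test, as a rise. In KO_sg1 minus WT, Cox6a1 was called higher under some alternatives. These were DESeq2 (0.36), no filter (0.32), the fit of those groups alone (0.32) and the hydropathy trend removed (0.36). Per kb, Cox6a2 made up 0.280% ± 0.0960 of the pair in KO_sg4, 0.240% ± 0.0445 in KO_sg1 and 6.89% ± 0.150 in WT, and Cox4i2 0.0441% ± 0.0133, 0.0468% ± 0.0166 and 0.477% ± 0.0325 of its pair. Even in WT the restricted isoforms were thus a small part of each subunit's transcripts. Cox7a1, the muscle isoform of subunit 7A, was at 9.89 ± 2.08 CPM in KO_sg4, 10.4 ± 1.25 in KO_sg1 and 11.5 ± 0.836 in WT and did not pass the test (-0.19 ± 0.13, adjusted p = 0.249), but was called lower with the length trend removed (-0.26, adjusted p = 0.0405).

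**Figure D4:**
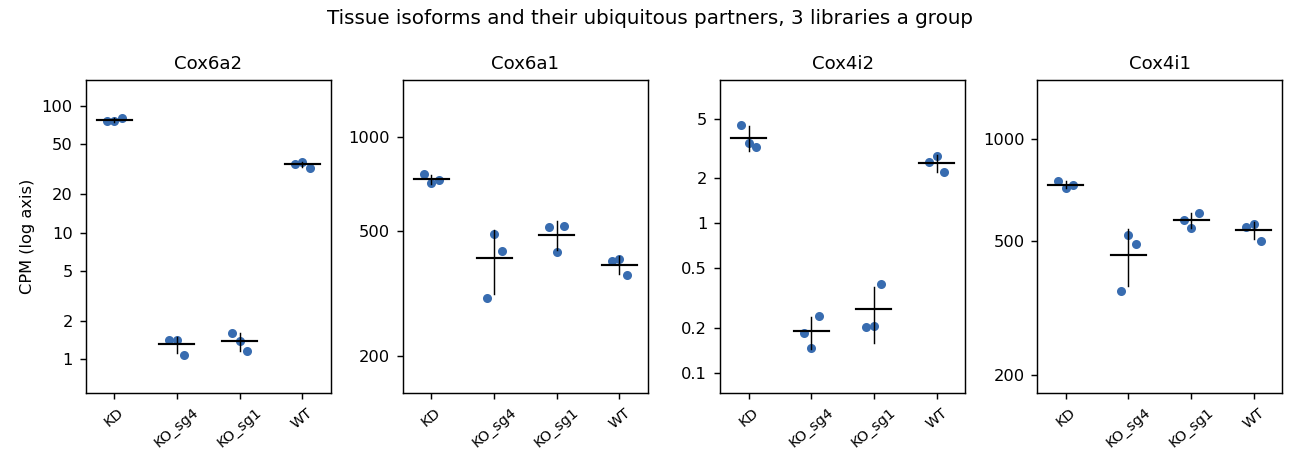
Level in CPM (log axis, scaled separately in each panel) of Cox6a2 and Cox4i2 beside their widely expressed partners Cox6a1 and Cox4i1, with 1 point per library, the mean as a horizontal line and the SD as a vertical one. Cox6a2 and Cox4i2 lie lowest in the 6 KO libraries and highest in KD, while Cox6a1 and Cox4i1 lie within a few-fold in all groups.

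Genes beside Cox6a2 on chromosome 7 were read because of its size of change, after its values were seen. In RefSeq order, Itgam, Itgax and Itgad, which encode integrin alpha chains of myeloid cells, precede it. Itgam had 0.960, 1.12 and 1.02 CPM in KO_sg4 and 0.364, 0.413 and 0.279 in KO_sg1, against 4.88, 4.49 and 4.65 in WT (-2.92 ± 0.12, adjusted p = 4.99e-11), and was higher in KD (12.2 ± 0.160 CPM, 1.38 ± 0.09). Itgad gave 2 estimated counts over the 6 KO libraries and 56.5 over the 3 WT libraries, and Itgax 4 and 14.2. On the other side, 9130023H24Rik (-0.37 ± 0.11, adjusted p = 0.0134) and Armc5, an adaptor of protein degradation (-0.26 ± 0.05, adjusted p = 0.00065), were also lower in KO, and Tgfb1i1 did not pass the test (-0.75 ± 0.31, adjusted p = 0.0726). In KD these 3 genes were higher, by 0.41, 0.24 and 1.33. Around Cox4i2 on chromosome 2, the 5 tested neighbours H13, Mcts2, Id1, Bcl2l1 and Tpx2 did not pass the test in KO (log2 fold changes from -0.70 to 0.41, edgeR adjusted p from 0.0578 to 0.404). In KD, H13, Mcts2 and Id1 were higher, by 1.44, 1.53 and 0.93, and Bcl2l1 and Tpx2 lower (-0.21 and -0.72). Summed myeloid markers moved with both isoforms, at 86.8 to 89.6 CPM in KD, 7.34 to 8.50 in KO_sg4, 5.19 to 6.96 in KO_sg1 and 27.3 to 28.2 in WT. All 4 tested of the 8 markers (Csf1r, Lyz2, Itgam and Fcgr1) were higher in KD and lower in KO, Itgam being 1 of them, while the defining factor Cebpa was at 0 in every library and Mpo, Elane and Cebpe were under 0.03 CPM in every group mean. The epithelial cadherin gene Cdh1, from the stromal and epithelial list, moved likewise at under 1 CPM. Their part in the Cox6a2 and Cox4i2 results was not tested.

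**Figure D5:**
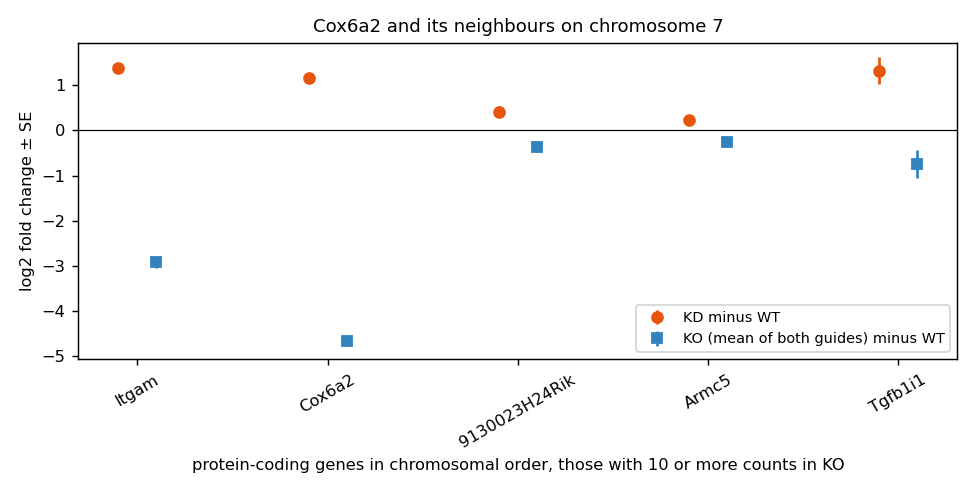
Log2 fold change ± SE (y axis) of Cox6a2 and the protein-coding genes next to it on chromosome 7 in their order (x axis). Circles give KD minus WT and squares KO minus WT. Genes under 10 estimated counts in KO, or that did not pass the filter on low counts, are not drawn. Of the genes drawn, Itgam and Cox6a2 are the lowest in KO (-2.92 and -4.66), while 9130023H24Rik and Armc5 lie at -0.37 and -0.26. Itgad and Itgax, not drawn, were at -5.31 and -2.66 in KO, on 2 and 4 estimated counts over the KO libraries.

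The other 15 called members changed by less than 1.5-fold in KO. The largest rise was that of Ndufaf2, an assembly factor of complex I, with 20.8, 26.4 and 25.6 CPM in KO_sg4 and 24.4, 25.1 and 27.2 in KO_sg1, against 17.7, 17.6 and 17.3 in WT (0.50 ± 0.09, adjusted p = 0.00062). All KO libraries lay above all WT libraries. Cox7a2l, which joins complexes III and IV into supercomplexes and is shortened in C57BL/6 mice, was at 197, 246 and 239 CPM in KO_sg4 and 253, 251 and 277 in KO_sg1, against 192, 191 and 177 in WT (0.38 ± 0.07, adjusted p = 0.000351). Ndufaf4, another complex I assembly factor, rose in both guides (0.25 ± 0.04). Ndufa5, Uqcrh, Atp5j, Cox6c, Ndufa4 and Uqcrb rose by 0.23 to 0.42 on the average of the guides, each called for KO_sg1 alone but not for KO_sg4 alone. By edgeR the difference between the guides did not pass the test for any of these 6. With DESeq2 it passed for Ndufa4, lower in KO_sg4 (-0.26, Wald test adjusted p = 0.0483). Those that fell included both matrix subunits of complex II, Sdhb (-0.24 ± 0.07, adjusted p = 0.0107) and Sdha (-0.13 ± 0.05, adjusted p = 0.0456), the catalytic subunits Atp5b (-0.19 ± 0.06) and Atp5a1 (-0.14 ± 0.05), Uqcrc2 (-0.13 ± 0.05) and Atp5sl (-0.34 ± 0.06). Sdhc and Sdhd, the membrane anchors, did not pass (-0.04 and 0.01). The calls of Sdha, Atp5a1 and Uqcrc2 were lost when any of 9 libraries was left out, each WT library among them, and also with DESeq2, with no filter, in the fit of those groups alone, with the replicate block and with the length trend removed (adjusted p from 0.061 to 0.186); they held with limma-voom. Those of Uqcrh, Atp5j, Cox6c and Ndufa4 were lost without WT replicate 1 or 3, that of Ndufa5 without WT replicate 3 and that of Atp5b without WT replicate 1 or 2 and with the length trend removed (adjusted p = 0.0541). Cox6c was also lost without KO_sg1 replicate 3, and Ndufa4 without KO_sg1 replicate 3 or KO_sg4 replicate 3 and in the fit of those groups alone (adjusted p = 0.0568). By class, 3 membrane subunits rose and 2 fell of 38, and 3 matrix subunits rose and 5 fell of 34, with medians of 0.07 and 0.01.

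In the fit of all libraries the guides differed in this pathway, but the counts depended on single libraries. With 1 library left out, members lower in KO_sg4 than in KO_sg1 ranged from 5 to 62 and members higher from 0 to 1. Against WT, 3 members were higher and 12 lower in KO_sg4, against 18% and 22% of all genes tested, and 18 higher and 4 lower in KO_sg1, against 16.9% and 21.9%. Compared directly, 26 members were lower in KO_sg4 than in KO_sg1 and 0 higher, against 13.4% and 13.8% of all genes, and the median was -0.23. By edgeR at an unadjusted p below 0.05 the counts were 51 lower and 1 higher, and the share over all genes was not taken at that threshold. DESeq2 called 39 lower and 0 higher, against 16.1% and 12.7% of all genes. With limma-voom the counts were 27 and 0, against 13.7% and 13.3%. Complex III had 4 of 8 members called lower, complex IV 6 of 15, complex V 5 of 15 and complex I 8 of 36. Uqcrq, a small subunit of complex III, had 165, 257 and 220 CPM in KO_sg4, against 298, 276 and 339 in KO_sg1 (-0.51 ± 0.12, adjusted p = 0.00708). Cox8a, the only expressed form of that subunit, had 290, 442 and 380 CPM in KO_sg4, against 506, 476 and 546 in KO_sg1 (-0.46 ± 0.11, adjusted p = 0.0085). KO_sg4 replicate 1 was the lowest for both, and neither call held when only the libraries of the guides were fitted (adjusted p = 0.0543 and 0.0611).

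That library stood apart across the pathway. The median log2 ratio of all members to the WT mean was -0.34 in KO_sg4 replicate 1, against 0.11 and -0.02 in replicates 2 and 3, and the members took 1.57% of its total, against 1.81% in both others. In KO_sg1 the ratios were 0.16, 0.10 and 0.25, the last in replicate 3, where the ribosomal RNA gene Rn45s took 6.40% of the total. Without KO_sg4 replicate 1, 12 members were lower in KO_sg4 than in KO_sg1, against 11.3% of all genes in that fit, a share near the background, and the median was -0.11. The median of KO_sg4 minus WT became 0.05 in place of -0.07, with 15 of 86 members higher and 10 lower. These were smaller shares than over all genes in that fit, of which 20.5% were higher and 23.2% lower. The number called moved with single libraries: 62 were lower without KO_sg4 replicate 2, 5 without KO_sg1 replicate 3, 9 without KO_sg1 replicate 1, and 0 when only the libraries of the guides were fitted. The share of all genes lower moved as well, at 20.9%, 9.16%, 9.61% and 7.07% in those fits. The comparison of KO with WT also moved with the same library: without KO_sg4 replicate 1, 40 members were higher and 9 lower, with a median of 0.12 and 23.8% and 27.5% of all genes, and Cycs then passed the test as a rise, as it also did with DESeq2, library totals, no filter or the length trend removed (0.12 to 0.21).

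Hairpin and knockout cells were also compared directly, with WT not in the contrast. Of the 86 members 69 were lower and 8 higher in KD than in KO, against 40.4% and 42.9% of all genes tested, with a median of -0.66. All 15 members of complex V, all 8 of complex III and all 4 of complex II were lower in KD, with medians of -0.98, -0.82 and -0.55.

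Genes that work with the pathway but fall outside the symbol rule were read from lists, whose counts stand against 40.4% lower and 37.2% higher of all genes tested in KD and 23.8% and 17.7% in KO. Of 19 tested genes of the citric acid cycle and pyruvate dehydrogenase, which feed electrons into the chain, 16 fell and 2 rose in KD (median -0.87), and 11 fell in KO (median -0.16; edgeR called no rise in KO, DESeq2 1). Suclg1, a succinyl-CoA ligase subunit, and Idh2, the mitochondrial NADP-linked isocitrate dehydrogenase, fell by 1.40 and 1.25 on the log2 scale in KD, and Idh2 and Pdha1, the catalytic subunit of pyruvate dehydrogenase, by 0.43 each in KO. Pcx, pyruvate carboxylase, went the other way in KD (1.41 ± 0.08) and was lower in KO (-0.29 ± 0.07). Of 29 tested assembly factors and subunits with other names, 15 fell and 5 rose in KD (median -0.18), and 6 fell and 1 rose in KO (median -0.0020), in KO no larger a share in either direction than over all genes. Sco2, a copper chaperone of complex IV and a known p53 target, had 59.3 CPM in KD and 15.8 in WT (1.91 on the log2 scale), while Cox17, the copper carrier before it, fell by 1.05 and Atpif1, the inhibitor of the ATP synthase, by 1.03. Lrpprc, which stabilises mitochondrial mRNAs, was the 1 that rose in KO (0.41 ± 0.06), and Surf1 and Cox15 fell by 0.36 and 0.34. Cyc1, the cytochrome c1 of complex III, did not pass in either comparison (-0.16 in KD and 0.00 in KO), but was called lower in KD with no filter (-0.22), in the fit of those groups alone (-0.13) and with the hydropathy trend removed (-0.59).

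Among 19 tested regulators of mitochondrial biogenesis 10 fell and 6 rose in KD (median -0.33), and 3 fell and 2 rose in KO (median 0.03). The KO counts were below the shares over all genes given above in both directions. Nrf1, Gabpa and Tfam, which switch on genes of respiration and of mitochondrial DNA, fell in KD by 0.69, 0.54 and 0.50 on the log2 scale (Gabpa no longer passed once the trend with hydropathy was taken out, adjusted p = 0.0531), as did Ssbp1, which binds single-stranded mitochondrial DNA, and Tfb1m, a mitochondrial rRNA methyltransferase, by 0.83 and 0.77. Polrmt, the mitochondrial RNA polymerase, had 157 CPM in KD and 56.6 in WT (1.47). In KO, Esrra, a nuclear receptor of energy metabolism, fell by 0.38 and Myc by 0.30, and Pprc1 rose by 0.26 and Tfam by 0.15, the last a call lost without WT replicate 1 or 2 and with library totals (adjusted p = 0.0969). Esrra did not pass the test in KD (0.15). It was called higher in KD with library totals (0.37), in the fit of those groups alone (0.19) and with the hydropathy trend removed (0.34). Ppargc1a, the coactivator PGC-1alpha, did not pass the filter on low counts, with a mean of at most 0.0330 CPM in any group, and Ppargc1b did not pass the test in KD (0.21) or KO (-0.11), but was called higher in KD with library totals (0.43), in the fit of those groups alone (0.25) and with the hydropathy trend removed (0.58).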

How the data were processed

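RNA of 12 libraries, 3 in each of 4 groups, was sequenced. The authors deposited 1 table of estimated counts per gene symbol, not whole and not normalized, made with RSEM. RSEM 1.2.12, Bowtie 1.0.1 and the mouse build mm9 are named in the submitters' processing notes; the sources used here give neither annotation nor strandedness. Genes of this pathway have near-identical processed copies in the genome, so the division of reads among copies by the authors' counting is uncertain.

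Counts were rounded and fitted in R 4.3.3 with edgeR 4.0.16: genes under a minimum count of 10 were removed (12335 of 23224 kept), TMM scaling gave factors of 0.880 to 1.14, and quasi-likelihood tests were made for 6 comparisons over 4 group means, two-sided, with Benjamini-Hochberg adjustment over all genes tested and a threshold of 0.05. KO is the mean of both guides, each weighted equally. Values after ± are SDs of CPM over 3 libraries or SEs of log2 fold changes. KD minus WT, KO minus WT and the comparisons of each guide with WT share the WT libraries. A count of 0 was taken to allow up to 3 counts, a limit that covers counting error only. Replicates differed by more than sampling noise in all 12 pairs within groups (chi-square per degree of freedom 3.24 to 60.8). The ribosomal RNA gene Rn45s took 0.665% to 6.40% of the totals and was kept.

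Proteins and transcript lengths came from GENCODE translations and transcripts of GRCm38, matched by symbol for all 91 members, and promoters from the RefSeq table. Neither was used with coordinates of the deposited table. The places of subunits in the mitochondrion were assigned from general knowledge. Alternatives were DESeq2 1.42.0 (size factors and Wald test), limma 3.58.1 (voom), library totals, no filter, fits of the groups compared alone, a replicate block, removal of a lowess trend (span 0.3) with protein length or hydropathy, classes by computed segment, and leaving out each library. Genes named were, for KO and KD minus WT and between guides, the 8 members highest and 8 lowest by log2 fold change among those called whose level reached 5 CPM in some group, the members of isoform sets, complex II, Cycs, the assembly factors, and from each list up to 3 called genes per comparison plus key regulators; other genes were chosen after their values were seen. The members, lists and tests were chosen with earlier results of these data known.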

Additional observations from a re-analysis of the deposited data

Results flagged for a closer look

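In the fit of all libraries, members of the pathway differed between the guides, and the number called depended on single libraries. In KO_sg4, 26 members were lower than in KO_sg1 by the test of the difference itself, against 13.4% of all genes. The 8 widest differences among these members were -0.51 for Uqcrq, -0.46 for Cox8a, -0.43 for Ndufb2, -0.41 for Uqcr11, -0.40 each for Ndufaf3, Uqcr10 and Ndufb7, and -0.38 for Ndufs7 on the log2 scale. KO_sg4 replicate 1 was the lowest of the 6 KO libraries for each of these 8 genes. Without that library 12 members were called lower, against 11.3% of all genes. The calls of Ndufb2, Uqcr11, Uqcr10, Ndufb7 and Ndufs7 were then lost, and those of Cox8a, Uqcrq and Ndufaf3 were not. When only the libraries of the guides were fitted, all 8 calls were lost, with adjusted p = 0.0611 for Cox8a, 0.0543 for Uqcrq and 0.0509 for Ndufaf3.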

How the results depend on the processing

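Of the single-gene values tried under alternatives, 2691 kept direction and side of the threshold, 184 lost the call, 73 gained one and 12 changed sign. In KD minus WT, the number of members higher was 16 with library totals, 12 in the fit of those groups alone and 22 with the length trend removed. Of all genes, 45.4%, 42.2% and 34.4% were higher in those fits, against 37.2% in the main fit. The number lower in KO minus WT was 5 with DESeq2 size factors, with DESeq2's own test, in the fit of those groups alone and with the replicate block, and 14 with library totals. The shares of all genes lower were 21.4%, 21.2%, 20.5%, 21.9% and 23.7% in the same order. The number higher was 15 with DESeq2 and 14 with the length trend removed, against 22% and 22.9% of all genes. In KO_sg1 minus WT, 29, 38 and 49 were higher with DESeq2 size factors, DESeq2 and the groups alone, and 9 lower with library totals. Over all genes the shares were 21.6%, 22.3% and 23.2% higher, and 25% lower with library totals. In KO_sg4 minus WT, 6 were lower with the groups alone and 11 higher without the length trend, against 17.9% and 21.8% of all genes. Between guides, lower members numbered 12 with library totals, 12 without the length trend and 0 with the guides alone, and higher ones 1 with library totals and 2 without the length trend. Among all genes, 8.54%, 13.8% and 7.07% were lower, and 23% and 12.4% higher, in the same order. In KD minus KO, 15 and 22 were higher with library totals and without the length trend, against 51.5% and 39.6% of all genes.

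The membrane minus matrix median depended on how the classes and trends were drawn. With classes by computed segment it was 0.12 in KD minus WT, -0.073 in KO, -0.056 in KO_sg1, -0.022 in KO_sg4 and -0.014 in KD minus KO. Without the length trend it was 0.61 in KD minus WT, 0.00780 in KO_sg1 minus WT, 0.018 between guides and 0.62 in KD minus KO. Without the hydropathy trend it was -0.14 for KD minus WT, 0.13 for KO_sg1 minus WT, and -0.29 for KD minus KO. The cause was not tested.

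In KD minus WT, genes changed sign without the length trend (Cox6b1 0.11, Cox7a1 0.019, Cox7a2 0.073, Cox7b 0.013, Cox8a 0.30, Ndufaf4 0.18), without the hydropathy trend (Cox4i1 -0.39, Cox4i2 -0.093, Cox6b1 0.060, Ndufaf2 0.22, Ndufaf4 0.26) or with library totals (Ndufaf4 0.060).

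Among lists, assembly factors higher in KO numbered 3, 2 and 3 with DESeq2 size factors, DESeq2 and the length trend removed, and higher in KD 9 with library totals or without the hydropathy trend. Biogenesis regulators higher in KO numbered 4 in each of DESeq2 size factors, DESeq2 and both trend removals, and 1 with library totals; lower in KD 6 with library totals and 5 without the hydropathy trend; higher in KD 3 without the length trend. Citric acid cycle genes higher in KO numbered 1 with DESeq2 and 1 without the length trend. Of all genes, 21.7% were higher in KO with DESeq2 size factors, 22% with DESeq2 and 14.3% with library totals. Without the length or the hydropathy trend, 22.9% and 20.7% were higher in KO. In KD, 45.4% were higher with library totals, 35.7% without the hydropathy trend and 34.4% without the length trend. Those lower in KD were 30.6% with library totals and 36.4% without the hydropathy trend.

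With 1 library left out, members higher ranged from 6 to 9 in KD minus WT, 4 to 40 in KO, 10 to 50 in KO_sg1, 3 to 15 in KO_sg4, 0 to 1 between guides and 8 to 10 in KD minus KO. Members lower ranged from 63 to 69, 4 to 12, 3 to 7, 7 to 23, 5 to 62 and 65 to 71 in the same order. The share of all genes higher ranged, in that order, over 34% to 39.6%, 12.8% to 23.8%, 11.9% to 22.9%, 13.2% to 20.5%, 8.93% to 21.5% and 41.7% to 45.4%. The share lower ranged over 37.3% to 41.3%, 19.6% to 27.5%, 17.8% to 25.6%, 18.6% to 23.4%, 9.16% to 20.9% and 37.3% to 40.9%. The membrane minus matrix median ranged from 0.29 to 0.34 in KD minus WT, 0.04 to 0.07 in KO, 0.04 to 0.10 in KO_sg1, -0.0057 to 0.063 in KO_sg4, -0.12 to -0.033 between guides and 0.15 to 0.22 in KD minus KO. Assembly factors ranged from 4 to 6 higher and 12 to 17 lower in KD and 1 to 5 and 4 to 6 in KO, biogenesis regulators from 4 to 7 and 9 to 10 in KD and 1 to 4 and 2 to 5 in KO, and citric acid cycle genes from 2 to 2 and 16 to 17 in KD and 0 to 1 and 8 to 12 in KO.

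Same-numbered libraries of different groups had correlations of their deviations from the group means from -0.450 to 0.151 over 18 pairs. Differently numbered libraries were not compared, so this range cannot tell whether replicate numbers pair the samples. With the replicate block, members higher and lower were 7 and 68 in KD minus WT, 9 and 5 in KO, 19 and 3 in KO_sg1, 3 and 11 in KO_sg4, 0 and 19 between guides, and 8 and 68 in KD minus KO. The shares of all genes, in that order, were 36.1% and 39.6%, 15.7% and 21.9%, 14.6% and 20%, 15.6% and 20.3%, 10.9% and 11.2%, and 42.2% and 39.8%. Depth limits Cox4i2 in KO, with 3 to 7.27 estimated counts a library, and the 5 members that did not pass the filter.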
